A study of Mus musculus with 5 samples.

Results

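The Ly6 family members described here are Ly6a, Ly6c1, Ly6c2, Ly6d, Ly6e, Ly6g and Ly6i, 7 of the 32285 genes counted in single cells of mouse spleen. They were chosen by symbol, after Ly6a and Ly6i had been seen at higher levels in progenitor-like cells of decoy-treated than of PBS-treated mice. The values of the progenitor-like class in that comparison are therefore given as a description, with no test. All 7 genes had UMIs (unique molecular identifiers, each standing for 1 captured RNA molecule) in the libraries.

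C57BL/6 mice carried CMM cells, a mouse acute myeloid leukaemia with inv(16) that is marked by green fluorescent protein (GFP) and was given intravenously. When GFP+ cells reached about 1% in blood, mice received 3 intravenous injections, every other day, of CpG-STAT3dODN or of PBS. CpG-STAT3dODN joins a CpG oligonucleotide, a ligand of the endosomal receptor TLR9, to a decoy oligonucleotide that binds the transcription factor STAT3. GFP+ c-Kit+ spleen cells were sorted and made into 5 droplet libraries: Decoy 2, Decoy 3, Decoy 5 and Decoy 6 (n = 4) and PBS (n = 1). The study asks how the treatment changes the expression programme of these leukaemic cells. Nothing in the labels ties a library to its own mouse, so the spread behind each p-value is that between libraries and may be technical, and PBS, with 1 library, is taken to vary as the Decoy libraries do.

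Ly6 proteins are small surface proteins with a three-fingered fold that are held in the membrane by a glycosylphosphatidylinositol (GPI) anchor. In mouse blood several serve as lineage markers: Ly6a is Sca-1, found on stem cells and activated lymphocytes, Ly6c2 and Ly6c1 encode forms of Ly6C, found on monocytes and endothelium, Ly6g marks neutrophils and Ly6d marks the B lineage. Interferons induce Ly6a and Ly6e, and Ly6e limits the entry of some viruses.

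All 7 genes lay on mm10 chromosome 15, from 74762056 at the start of Ly6d to 75159126 at the end of Ly6g, a span of 397.1 kb. Ly6d (74762056 to 74763620), Ly6i (74979534 to 74983430), Ly6a (74994877 to 74998031), Ly6c1 (75044018 to 75048830) and Ly6c2 (75108158 to 75111970) are on the minus strand. Ly6e (74955051 to 74959905) and Ly6g (75155240 to 75159126) are on the plus strand. All are protein-coding genes in the GENCODE vM21 annotation.

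RefSeq promoter sequences (GRCm38.p6, the mm10 build) were at hand for Ly6c1, Ly6c2 and Ly6g. They are shown because these neighbours, similar in their 250 upstream bases, differed in the cells that held their RNA. Capitals mark the 12-base run found in all 3, and each sequence reads 5′ to 3′ on the strand of its gene.
Ly6c1, chr15:75048838-75049087, minus strand: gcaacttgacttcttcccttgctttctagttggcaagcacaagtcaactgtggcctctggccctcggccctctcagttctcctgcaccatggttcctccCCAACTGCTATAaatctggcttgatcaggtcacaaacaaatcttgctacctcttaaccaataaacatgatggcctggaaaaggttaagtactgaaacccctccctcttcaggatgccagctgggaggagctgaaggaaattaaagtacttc
Ly6c2, chr15:75111972-75112221, minus strand: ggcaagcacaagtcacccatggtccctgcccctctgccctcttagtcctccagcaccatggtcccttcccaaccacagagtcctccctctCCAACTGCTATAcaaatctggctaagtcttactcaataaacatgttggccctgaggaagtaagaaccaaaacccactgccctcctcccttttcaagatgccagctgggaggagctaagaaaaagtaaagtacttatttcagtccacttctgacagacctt
Ly6g, chr15:75155011-75155260, plus strand: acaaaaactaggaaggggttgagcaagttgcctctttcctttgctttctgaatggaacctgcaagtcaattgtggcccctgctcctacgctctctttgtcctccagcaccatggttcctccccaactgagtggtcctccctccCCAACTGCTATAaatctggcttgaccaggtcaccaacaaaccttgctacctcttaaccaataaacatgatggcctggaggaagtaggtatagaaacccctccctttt

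Over the aligned bases, identity was 81.0% between Ly6c1 and Ly6c2, 85.8% between Ly6c1 and Ly6g and 81.3% between Ly6c2 and Ly6g. The core of the interferon-stimulated response element (TTTC and TTTC, 2 bases apart) and the STAT pattern TTCNNNGAA, searched on both strands, matched in 0 of the 3 sequences. The NF-kB pattern (GGGA and CC, 4 bases apart) matched once each in Ly6c1 and Ly6g. Of 32851 RefSeq promoters of the same length, 3.44%, 8.3% and 20.7% held these patterns in the order given, so the matches describe letters, not binding.

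Reads of Ly6c1 and Ly6c2 can be hard to tell apart. Of 91-base windows in the last 500 bases of their transcripts, 13.5% of those of Ly6c1 occurred exactly in Ly6a or Ly6c2. For Ly6c2, 19.0% occurred exactly in Ly6c1. The share was 0 for the windows of the other 5 genes, Ly6a among them. The values of Ly6c1 and Ly6c2 are therefore uncertain where counting could have split or dropped such reads.

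The libraries held 56490098 to 234251245 UMIs in 2454 to 6867 barcodes (Decoy) and 579333323 UMIs in 19337 barcodes (PBS). After filtering, 1933 to 6250 Decoy cells and 16034 PBS cells were kept, with medians of 14005 to 36505 and of 30706 UMIs. Pairs of libraries shared 1 to 45 barcodes, at most 0.695% of the smaller. Decoy 2 stood apart from the other Decoy libraries, since 5373 of its 6250 cells fell in the class that makes up most of PBS. The doublet caller marked 0 to 0.412% of Decoy cells and 6.88% of PBS cells, against an expected 1.96% to 5.49% and 15.5%, so droplets that hold more than 1 cell can remain in the classes.

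Cells were clustered without Ly6, interferon and NF-kB genes and named by markers. The largest class (5373, 395, 7 and 1465 cells in Decoy 2, 3, 5 and 6, and 14847 in PBS) passed the naming rule on only 3 of 10 mast cell and basophil markers, Fcer1a, Ms4a2 and Il1rl1. It also passed on 3 erythroid markers. Erythroid markers summed to 5258 to 10563 CPM (UMIs scaled to a class total of 1e6) in Decoy and 4254 CPM in PBS. Mast cell and basophil markers summed to 2976 to 4027 and 2950 CPM. No marker was among its 10 leading genes, so it is called the Xist-high class. Xist stood at 881 to 1089 CPM in the Decoy libraries and 975 CPM in PBS there, with Y-linked genes at 0.188 to 0.626 and 0.209 CPM. The sort label was GFP+ c-Kit+, yet Kit, which encodes c-Kit, was lower in most other classes. It was at 43.6 to 51.9 CPM in Decoy and 51.4 CPM in PBS cells of the Xist-high class. In B cell-like cells Kit was at 0 to 1.41 CPM in Decoy and 0.990 CPM in PBS. In progenitor-like cells it was at 6.78 to 12.5 CPM in Decoy and 5.73 CPM in PBS. Sphk1 erythroid-like cells of Decoy 3, 5 and 6 came near the Xist-high class, at 28.6 to 46.0 CPM.

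The progenitor-like class combined granulocyte-monocyte progenitor genes (Prtn3, Elane) with monocyte genes (F13a1, Vcan, Fn1), in 174, 122, 299 and 142 Decoy cells and 100 PBS cells. The others used here were B cell-like, plasma cell-like, NK cell and T cell-like, a Saa3 and a Marco macrophage-like class, a Fcnb (immature) and a Cstdc4 neutrophil-like class, an Sphk1 erythroid-like class, and small dendritic classes. Progenitor-like cells had Xist at 0 to 26.4 CPM in Decoy and 44.4 CPM in PBS, and Y-linked genes at 72.6 to 106 and 110 CPM. Sphk1 erythroid-like cells of Decoy 3, 5 and 6 had Xist at 0.156 to 5.36 CPM and Y-linked genes at 122 to 131 CPM. Marco macrophage-like cells of Decoy 2 had both, at 514 and 21.2 CPM. Which classes were leukaemic was not tested. Values of the Decoy libraries are listed in the order Decoy 2, 3, 5 and 6. Means cover libraries with at least 50 cells of a class unless stated.

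The members differed in the cells that held them. Among the classes plotted, Ly6d was led by B cell-like cells, Ly6g by neutrophil-like cells, Ly6i by macrophage-like, neutrophil-like and progenitor-like cells and Ly6c2 by progenitor-like cells. Ly6a was present in most classes but nearly absent from the Xist-high class, and Ly6e was abundant in each of these classes. A further class, Hbb-bs erythroid-like, held 550 PBS cells and at most 7 of a Decoy library. There Ly6a was at 4.32 CPM and Ly6e at 59.0 CPM in PBS.

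**Figure D1:**
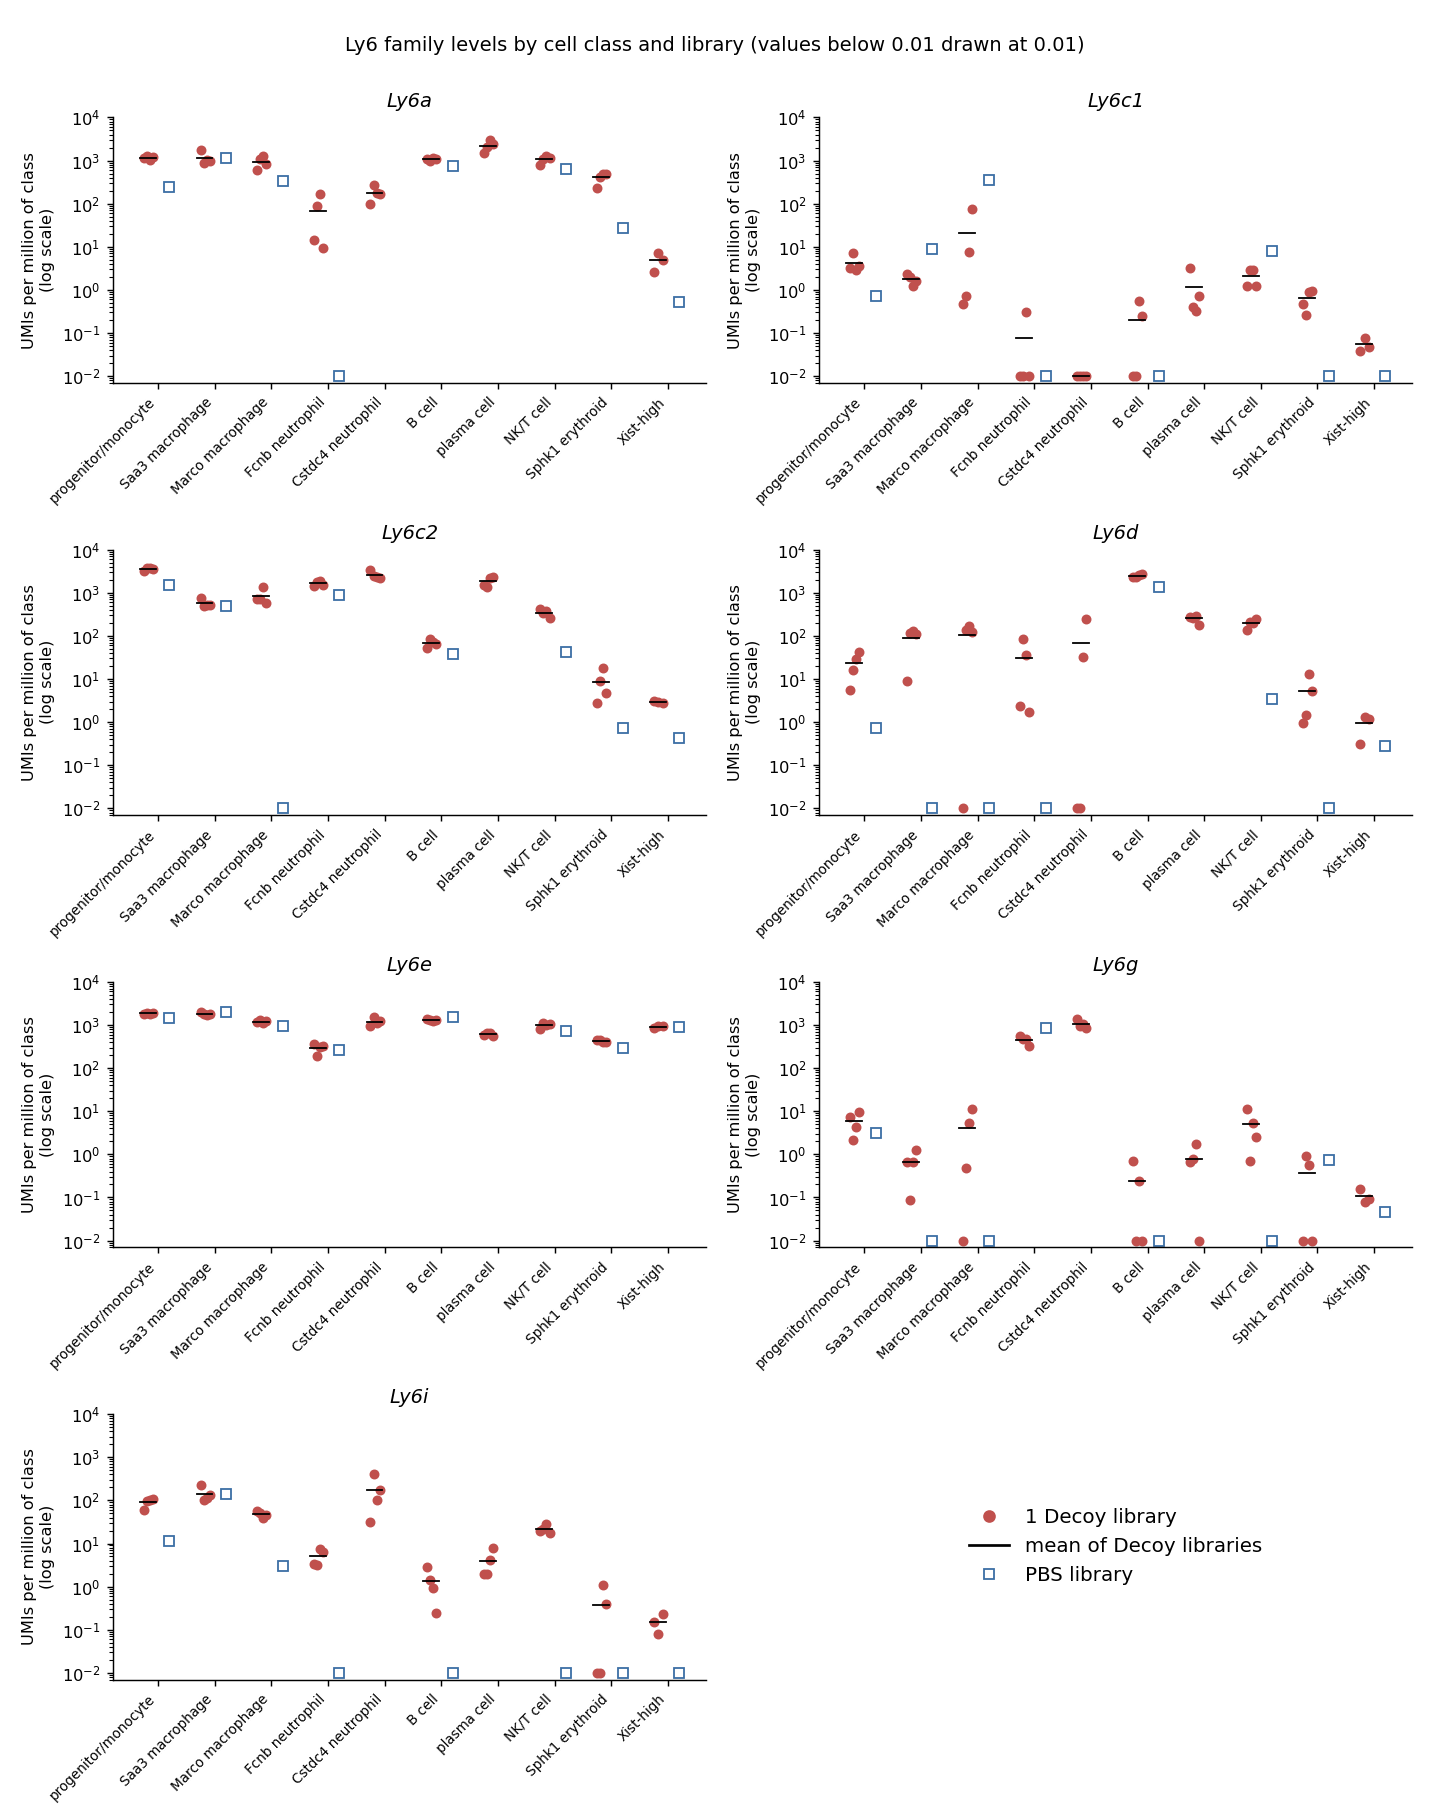
Level of each member by cell class (x axis) in CPM (y axis, log scale; values below 0.01 are drawn at 0.01). Filled red circles are Decoy libraries, open blue squares the PBS library, and black lines Decoy means, for libraries with at least 20 cells of the class. Ly6d and Ly6g are high in B cell-like and neutrophil-like cells, and Ly6e is high in every class plotted.

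Ly6a, the stem cell antigen Sca-1, stood highest, among classes with at least 50 cells in a library, in plasma cell-like cells of the Decoy libraries, at 2478 ± 434 CPM (SD, n = 3), whereas PBS had 0 plasma cell-like cells. Next came progenitor-like cells (1172 ± 103), Saa3 macrophage-like cells (1168 ± 408), B cell-like cells (1081 ± 66.4), NK cell and T cell-like cells (1080 ± 212) and Marco macrophage-like cells (941 ± 289, SD, n = 4 each). The ranges of neighbours among these 5 overlapped. Sphk1 erythroid-like cells followed at 463 ± 46.6 CPM (n = 3). Then came Cstdc4 neutrophil-like cells at 175 ± 4.75 CPM (n = 2) and Fcnb neutrophil-like cells at 63.0 ± 88.7 CPM (n = 3). The Xist-high class was last at 4.84 ± 2.29 CPM (n = 3).

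In progenitor-like cells Ly6a was at 1145, 1281, 1042 and 1222 CPM in the Decoy libraries, against 249 CPM in PBS. All 4 Decoy libraries lay above PBS, with a Decoy mean 4.71-fold that of PBS (2.24 on the log2 scale, SD 0.129 over the Decoy libraries). At least 1 Ly6a UMI was found in 98.3%, 100%, 97.7% and 99.3% of Decoy cells, against 81.0% of PBS cells (exact Clopper-Pearson 95% interval 71.9% to 88.2%, counting error only). With each cell thinned to 3000 UMIs these shares were 77.5% to 85.1% in Decoy and 31.3% in PBS. RNA of other cells, estimated in this class from haemoglobin and immunoglobulin genes, would give 6.82 to 237 CPM in Decoy and 4.84 CPM in PBS.

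Ly6i, a close relative of Ly6a, was at 59.5, 98.9, 99.9 and 106 CPM in progenitor-like cells of the Decoy libraries, against 11.7 CPM in PBS, a 7.78-fold ratio. Ly6c2, the Ly6C of monocytes, was at 3125, 3829, 3724 and 3609 CPM in Decoy and 1527 CPM in PBS. Ly6e was at 1787, 1906, 1839 and 1904 CPM in Decoy and 1426 CPM in PBS. For Ly6i, Ly6c2 and Ly6e, too, no Decoy library overlapped PBS. In this class 2.95% of the 11080 genes tested were called by edgeR, a background from which nothing is read for genes that the same comparison chose.

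The remaining members were sparse in progenitor-like cells. Ly6g was at 7.17, 2.21, 4.23 and 9.60 CPM in Decoy, and PBS, with 13 UMIs, lay within that range. Ly6d was at 5.57, 15.8, 29.7 and 41.3 CPM in Decoy and 0.716 CPM, which was 3 UMIs, in PBS. Ly6c1 was at 3.18, 7.25, 2.91 and 3.54 CPM in Decoy and also at 3 UMIs in PBS, a ratio of 5.89 with a counting interval of 2.02 to 28.6. Beside Ly6d, the summed B cell markers of this class were at 13.3, 24.4, 66.6 and 57.9 CPM in Decoy and 9.78 CPM in PBS. RNA of other cells would give 1.36, 24.3, 112 and 41.2 CPM of Ly6d in Decoy and 2.14 CPM in PBS, above the measured level in Decoy 3, Decoy 5 and PBS.

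**Figure D2:**
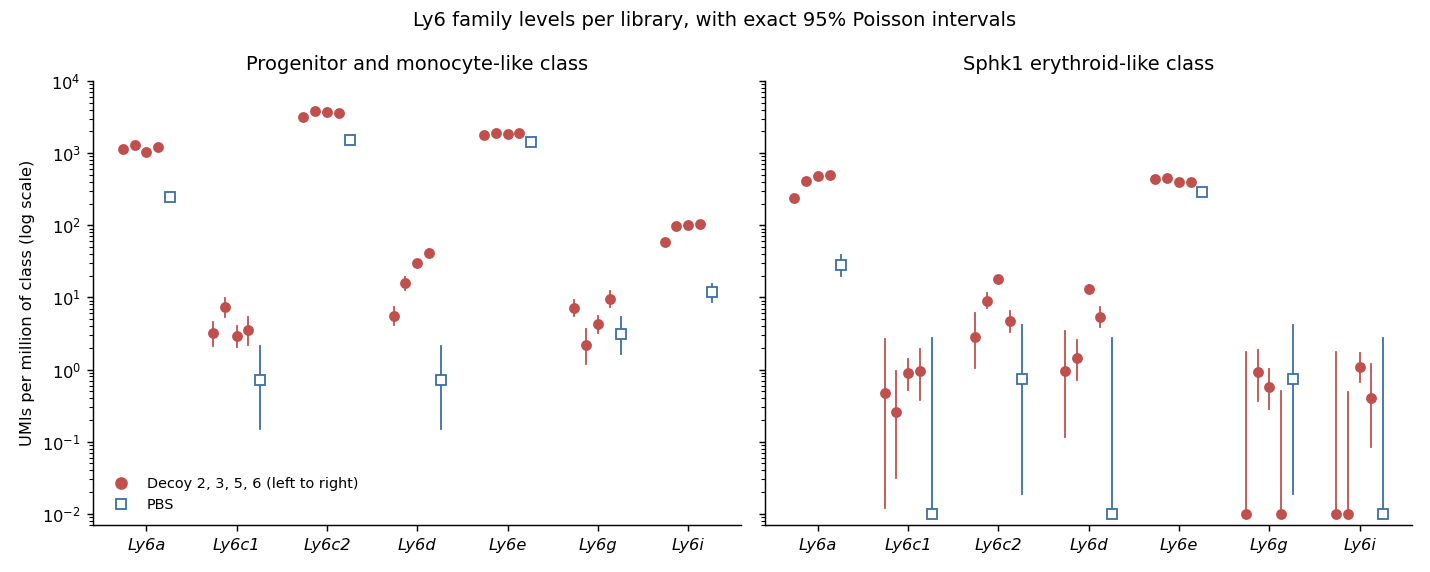
Levels of the 7 members (x axis) in CPM (y axis, log scale; values below 0.01 are drawn at 0.01) in the progenitor and monocyte-like and the Sphk1 erythroid-like class. Red circles are Decoy 2, 3, 5 and 6 from left to right, blue squares PBS, and bars exact 95% Poisson intervals that cover counting error only. Ly6a and Ly6i of progenitor-like cells, and Ly6a of erythroid-like cells, are higher in every Decoy library than in PBS.

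The progenitor-like class was not made of the same subclusters in both groups. Of its 100 PBS cells, 48 lay in a subcluster led by Cpne8, Dmkn and Il1r2, which held 1, 0, 0 and 0 cells of the Decoy libraries. Ly6a was at 248 CPM and Ly6i at 6.27 CPM in those PBS cells. A monocyte-like subcluster with Ccr2 and Vcan, led by Apoc2, Upp1 and Tppp3, held 21 to 34 cells of each Decoy library and 24 of PBS. These cells belong to the comparison after which the members were chosen, so their values are given as a description. In this subcluster Ly6a was at 2281, 2107, 1632 and 2462 CPM in Decoy and 628 CPM in PBS. Ly6i was at 143, 286, 233 and 361 CPM in Decoy and 53.6 CPM in PBS, and Ly6c2 at 5362, 5128, 5720 and 5681 CPM in Decoy and 1947 CPM in PBS.

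Progenitor-like cells with the granule genes Mpo and Ctsg had less of these members than the monocyte-like subcluster. In the subcluster led by Ighg2c, Tmem178 and Mpo, Ly6a was at 714 to 939 CPM and Ly6i at 22.1 to 52.7 CPM in the 4 Decoy libraries. It held 12 PBS cells, too few for a value.

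Outside the progenitor-like class the comparison of Decoy with PBS was tested. Counts were summed per library and class, and edgeR's quasi-likelihood test was adjusted over all genes by the Benjamini-Hochberg method, with a call at an adjusted p under 0.05.

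In B cell-like cells Ly6d, which marks lymphoid progenitors as they commit to the B lineage, was at 2370, 2357, 2594 and 2744 CPM in the Decoy libraries and 1370 CPM in PBS. Each Decoy library lay above PBS, and Ly6d rose by 0.93 ± 0.16 on the log2 scale (SE, adjusted p = 0.0124, edgeR). At the clustering resolutions of 0.3 and 1.0 the call no longer held (adjusted p = 0.102 at both, edgeR), with 5 genes called in the class. Nearly every cell carried it, 98.6% to 100% of Decoy and 95.9% of PBS cells, at median depths of 6144 to 9109 and of 3899 UMIs. Ly6d was the 1 member called of 5 tested in this class, in which 1.92% of 10650 genes were called.

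The other members of B cell-like cells did not pass. Ly6a was at 1085, 993, 1154 and 1092 CPM in Decoy and 744 CPM in PBS (log2 fold change 0.59 ± 0.16, SE, adjusted p = 0.0824, edgeR), higher in 4 of 4 libraries. Ly6c2 was at 51.6, 84.5, 73.4 and 64.4 CPM in Decoy and 38.6 CPM in PBS (0.91, adjusted p = 0.119, edgeR). Ly6e was at 1367, 1326, 1243 and 1341 CPM in Decoy and 1577 CPM in PBS, lower in each Decoy library (-0.20, adjusted p = 0.503, edgeR). Erythroid markers of these cells summed to 59.6 to 597 CPM in Decoy and 8313 CPM in PBS, and monocyte markers to 1796 to 2149 and 995 CPM; their part in the Ly6d difference was not tested.

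In the Sphk1 erythroid-like class, erythroid by Klf1, Car1, Car2, Epor and Ermap, Ly6a rose. It was at 235, 410, 479 and 499 CPM in the Decoy libraries and 27.7 CPM, or 37 UMIs, in PBS, a 14.6-fold ratio. All Decoy libraries lay above PBS, with a fitted change of 3.92 ± 0.52 (log2, SE, adjusted p = 0.00933, edgeR). Decoy 2 had 31 and PBS 36 of these cells, so the class was admitted at 20 cells per library, a limit set after the data had been seen.

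Ly6e also rose in Sphk1 erythroid-like cells, at 442, 448, 400 and 395 CPM in Decoy and 293 CPM in PBS (0.55 ± 0.11, SE, adjusted p = 0.0370, edgeR). With Decoy 3, 5 or 6 left out, the Ly6e call no longer held (adjusted p = 0.0655, 0.0532 and 0.0549, edgeR), whereas that of Ly6a held without any single Decoy library (0.000186 to 0.0427). The 2 called were of 4 members tested here, and 2.99% of 10833 genes were called. Ly6c2 in the same cells was at 2.83, 9.02, 17.8 and 4.72 CPM in Decoy and 0.749 CPM, 1 UMI, in PBS (adjusted p = 0.351, edgeR), where RNA of other cells would give 2.45 to 38.3 and 0.536 CPM.

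Other markers moved in the same erythroid-like cells. Monocyte markers summed to 744 to 907 CPM in Decoy and 124 CPM in PBS, neutrophil markers to 46.7 to 1043 and 15.7 CPM, and erythroid markers to 11322 to 18130 and 26170 CPM. Macrophage markers were at 7.54 to 45.6 CPM in Decoy and 25.5 CPM in PBS. The level that RNA of other cells would give was scaled here from immunoglobulin and neutrophil genes only. For Ly6a it was 1.43, 38.1, 29.9 and 2.98 CPM in Decoy and 0.254 CPM in PBS, below the measured level in each library.

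In the Xist-high class Ly6a and Ly6c2 were called higher, at levels of a few CPM. Ly6a was at 2.55, 7.12 and 4.85 CPM in Decoy 2, 3 and 6 and 0.533 CPM in PBS (3.15 ± 0.47, log2, SE, adjusted p = 0.0152, edgeR, higher in 3 of 3). Ly6c2 was at 3.09, 2.90 and 2.81 CPM in Decoy and 0.419 CPM in PBS (2.90 ± 0.25, SE, adjusted p = 0.000756, edgeR, higher in 3 of 3). These 2 were called of 6 members tested, and 0.796% of 14317 genes were called. At the clustering resolution of 1.0 neither call held (adjusted p = 1.00 for Ly6a and 0.194 for Ly6c2, edgeR). Decoy 5, with 7 cells of the class, was left out of this fit.

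The expected level from RNA of other cells was 2.02, 4.82 and 3.44 CPM of Ly6a in Decoy 2, 3 and 6 and 1.14 CPM in PBS. For Ly6c2 it was 3.47, 4.85 and 3.48 CPM in Decoy and 2.41 CPM in PBS, above the measured level in every library. Over all kept cells Ly6a stood at 102, 737, 1051 and 481 CPM in the Decoy libraries and 7.66 CPM in PBS. A Ly6a UMI was found in 7.26%, 14.7% and 9.56% of Xist-high cells in Decoy 2, 3 and 6 and in 1.60% in PBS. Thinned to 3000 UMIs, the shares were 0.647%, 3.11% and 1.26% in Decoy and 0.218% in PBS. Macrophage markers of the class summed to 17.1, 34.3 and 36.3 CPM in Decoy and 13.6 CPM in PBS, and neutrophil markers to 81.2, 49.2 and 50.6 and to 20.8 CPM. Measured Ly6a lay above the expected level in 3 of 3 Decoy libraries and below it in PBS. The part of other cells' RNA in the Ly6a and Ly6c2 differences was not tested.

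**Figure D3:**
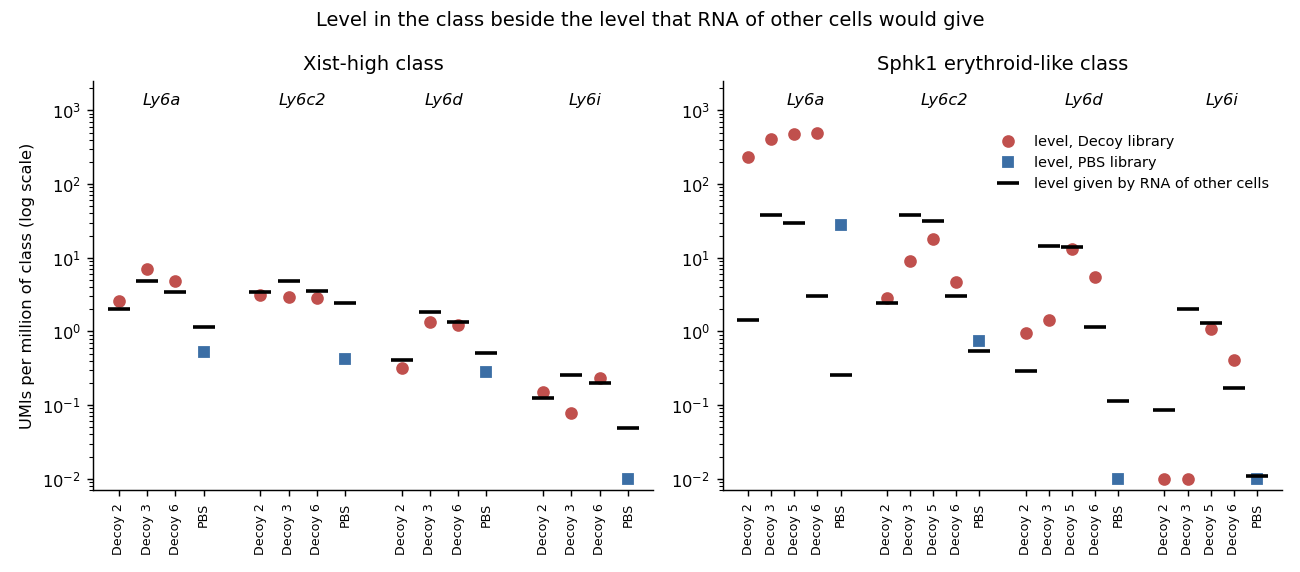
Levels of Ly6a, Ly6c2, Ly6d and Ly6i (points) in CPM (y axis, log scale; values below 0.01 are drawn at 0.01) per library (x axis) in the Xist-high and the Sphk1 erythroid-like class. Red circles are Decoy libraries and blue squares PBS, and black dashes the level that RNA of other cells would give. Ly6c2 of the Xist-high class lies below the dashes in every library plotted, Ly6a of that class lies a little above them in Decoy and below in PBS, and Ly6a of the erythroid-like class lies above them.

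Ly6e, a restriction factor for some viruses, was abundant in the Xist-high class without a detectable difference. It was at 845, 936 and 964 CPM in Decoy 2, 3 and 6 and 915 CPM in PBS, with overlap (0.08, log2, adjusted p = 0.898, edgeR). This class held 49.9% of all Ly6e UMIs of the Decoy libraries and 97.2% of those of PBS. Ly6i was at 0.150, 0.0783 and 0.236 CPM in Decoy and 0.00810 CPM, 4 UMIs, in PBS there (adjusted p = 0.0929, edgeR). Ly6d was at 0.319, 1.33 and 1.21 CPM in Decoy and 0.282 CPM in PBS (1.64, adjusted p = 0.459, edgeR).

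Macrophage-like cells with Saa3, an acute-phase gene, held the largest part of Ly6i UMIs, 53.9% in Decoy and 66.7% in PBS. Ly6i was at 233, 99.9, 113 and 130 CPM in Decoy and 138 CPM in PBS, with 1 of 4 Decoy libraries above PBS (0.02, log2, adjusted p = 0.996, edgeR). Ly6a was at 1776, 900, 1007 and 988 CPM in Decoy and 1126 CPM in PBS (0.05, adjusted p = 0.975, edgeR). Ly6e was at 1986, 1845, 1692 and 1759 CPM in Decoy and 2028 CPM in PBS (-0.16, adjusted p = 0.585, edgeR), and Ly6c2 at 774, 488, 526 and 521 CPM in Decoy and 498 CPM in PBS (0.21, adjusted p = 0.762, edgeR). Of the 12324 genes tested in this class, 0 were called by edgeR, so 0% is the background, with 1820 at an unadjusted p under 0.05. DESeq2 called 365 and voom 1.

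Ly6d in these macrophage-like cells was at 8.76, 114, 132 and 111 CPM in Decoy and 0 UMIs in PBS, at least 24.2-fold higher in Decoy against a floor of 3 UMIs in PBS (adjusted p = 0.374, edgeR; 0.000357 without Decoy 2). B cell markers summed to 30.3, 320, 346 and 334 CPM in Decoy and 67.9 CPM in PBS. A subcluster with 10 of 10 B cell markers, led by Ms4a1, Cd79a and Gimap4, had Ly6d at 589, 856 and 695 CPM in Decoy 3, 5 and 6, and the others had at most 60.9 CPM. It held 1 cell of Decoy 2 and 0 of PBS. RNA of other cells would give 1.27, 42.5, 366 and 95.6 CPM of Ly6d in Decoy and 10.5 CPM in PBS, above the measured level in Decoy 5 and PBS. The part of B cell RNA in Ly6d was not tested.

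Ly6i and Ly6a varied among macrophage-like cells of the same library. Both were highest in a subcluster led by Apol7c, Gp6 and Cxcl10, an interferon-induced chemokine. Ly6i was there at 538, 458, 460 and 572 CPM and Ly6a at 2731, 2291, 2522 and 2507 CPM in Decoy. In a subcluster led by Prune2, Pdcd1lg2 and Ccl8, Ly6i was at 13.1, 14.3 and 19.5 CPM and Ly6a at 234, 348 and 345 CPM in Decoy 3, 5 and 6. Ly6i was itself among the 10 leading genes of the first subcluster, so its level there is a description. Ly6e varied less, from 1253 to 2470 CPM over all subclusters and Decoy libraries. PBS had 14 and 15 cells in these 2 subclusters, fewer than the 20 required for a value.

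**Figure D4:**
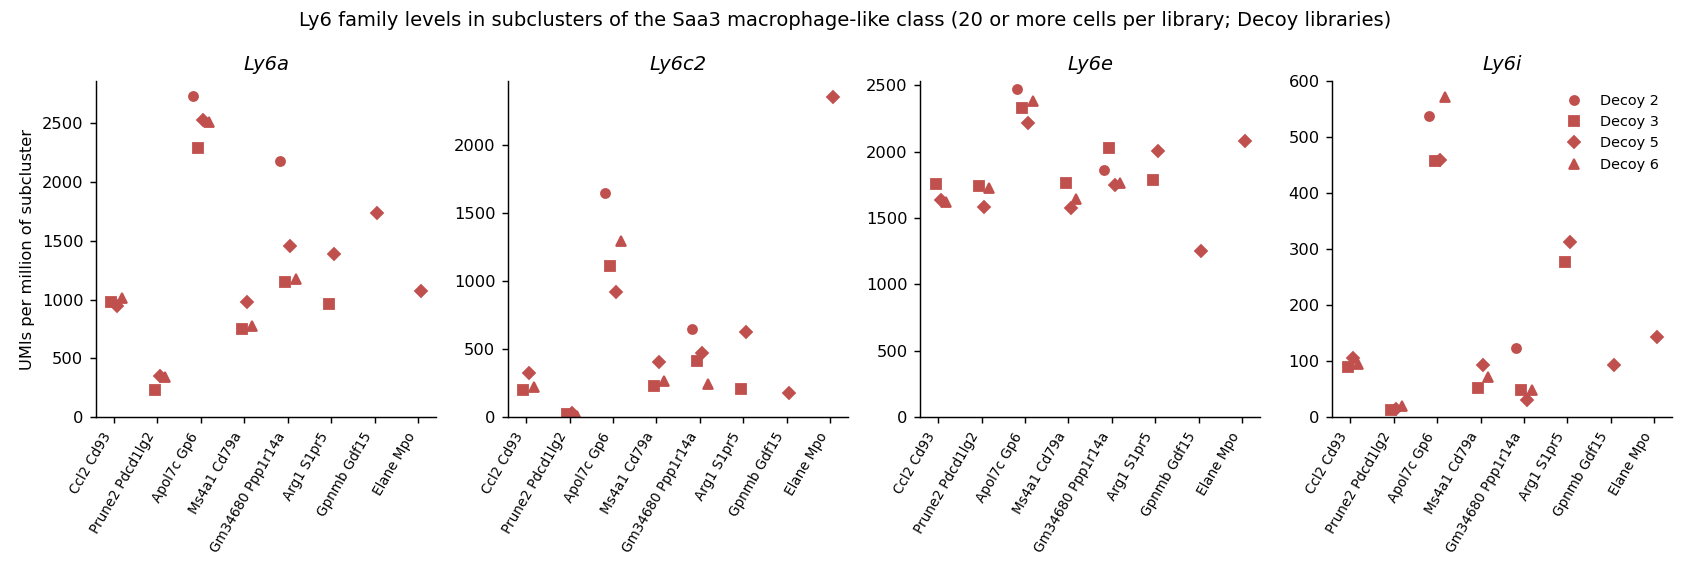
Levels of Ly6a, Ly6c2, Ly6e and Ly6i in CPM (y axis, from 0) in subclusters of the Saa3 macrophage-like class (x axis, by leading genes), for Decoy libraries with at least 20 cells; symbols mark libraries. Ly6a, Ly6c2 and Ly6i differ widely between subclusters, with Ly6i at 458 to 572 in the subcluster led by Apol7c and at 13.1 to 19.5 in that led by Prune2.

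In the Marco macrophage-like class, with 11 of 11 macrophage markers but medians of only 1812 to 2458 UMIs in Decoy and 2079 in PBS, Ly6c2 was at 731, 732, 1363 and 572 CPM in Decoy and 0 UMIs in PBS. That was at least 93.9-fold higher in Decoy against a floor of 3 UMIs in PBS (adjusted p = 0.161, edgeR). Ly6a was at 607, 1075, 1267 and 816 CPM in Decoy and 332 CPM in PBS (1.60, log2, adjusted p = 0.341, edgeR). Ly6i was at 38.1 to 57.6 CPM in the 4 Decoy libraries and at 1 UMI in PBS, a ratio of 15.9 with a counting interval of 2.85 to 626 (adjusted p = 0.161, edgeR). Here edgeR called 0% of 11016 genes, with 1374 at an unadjusted p under 0.05, and PBS had 39 cells, so the class was admitted at 20 cells.

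Neutrophil markers in these low-UMI cells summed to 4185 to 12052 CPM in Decoy and 24.1 CPM in PBS, and monocyte markers to 1471 to 2918 and 256 CPM. Plasma cell was the next marker list of this class, with 8 markers. Its markers summed to 159, 5849, 7078 and 3667 CPM in Decoy and 154 CPM in PBS. Macrophage markers summed to 1944, 5082, 6233 and 6229 CPM in Decoy and 2524 CPM in PBS. RNA of other cells would give 342, 1928, 2457 and 1402 CPM of Ly6c2 in Decoy and 23.9 CPM in PBS, above the measured level in Decoy 3, 5 and 6. The same held for Ly6a and Ly6i in those 3 libraries, and the part of other cells' RNA in these differences was not tested.

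Ly6c1, the Ly6C of endothelium, was the rarest member, with 509 UMIs in all Decoy libraries and 138 in PBS. Of the PBS UMIs, 116 lay in 4 of 39 Marco macrophage-like cells, at most 50 in 1 cell, and in Decoy 6 a single cell held 167 of 187. The class level was 0.472, 0.721, 7.63 and 76.1 CPM in Decoy and 350 CPM in PBS (-3.98, log2, adjusted p = 0.443, edgeR). Endothelial and stromal markers summed to 20.3, 75.0, 91.8 and 106 CPM in Decoy and 588 CPM in PBS, with the endothelial genes Cdh5 at 0 to 10.2 and 118 CPM and Kdr at 1.68 to 8.95 and 187 CPM, while Lyve1 was at 0 in PBS. Their part in the Ly6c1 level was not tested.

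In NK cell and T cell-like cells 0 of the 7 members tested passed. Ly6c2, which marks memory T cells, was at 419, 331, 388 and 257 CPM in Decoy and 41.6 CPM in PBS, 8.38-fold (3.13, log2, adjusted p = 0.114, edgeR). Ly6a was at 785, 1089, 1279 and 1166 CPM in Decoy and 622 CPM in PBS (0.86, adjusted p = 0.222, edgeR), and Ly6e at 819, 1129, 999 and 1058 CPM in Decoy and 721 CPM in PBS (0.54, adjusted p = 0.246, edgeR). Ly6d was at 134, 206, 199 and 245 CPM in Decoy and at 3 UMIs in PBS, a ratio of 58.1 with a counting interval of 19.9 to 282 (adjusted p = 0.114, edgeR). Ly6i was at 17.4 to 28.7 CPM in Decoy and 0 UMIs in PBS, at least 6.43-fold higher in Decoy against a floor of 3 UMIs in PBS (adjusted p = 0.141, edgeR). Ly6c1 was at 1.25, 2.83, 2.87 and 1.24 CPM in Decoy and 7.88 CPM, 7 UMIs, in PBS (-1.85, log2, adjusted p = 0.277, edgeR).

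The edgeR count in NK cell and T cell-like cells was 0 of 11086 (0%), with a smallest adjusted p of 0.114 and 2030 genes at an unadjusted p under 0.05; DESeq2 called 345 and voom 0. Without Decoy 2 it was 869 genes, 5 of them members: Ly6a (adjusted p = 0.0121), Ly6c2 (0.00322), Ly6d (0.000525), Ly6e (0.0307) and Ly6i (0.0198, edgeR). Macrophage markers of this class summed to 569, 3813, 2346 and 3549 CPM in Decoy and 38.3 CPM in PBS, neutrophil markers to 448 to 6302 and 18.0 CPM, and B cell markers to 185 to 616 and 30.4 CPM. RNA of other cells would give 52.8 to 198 CPM of Ly6c2 in Decoy and 9.10 CPM in PBS, and 7.59 to 88.8 and 1.91 CPM of Ly6d, below the measured levels. The part of the other markers was not tested.

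**Figure D5:**
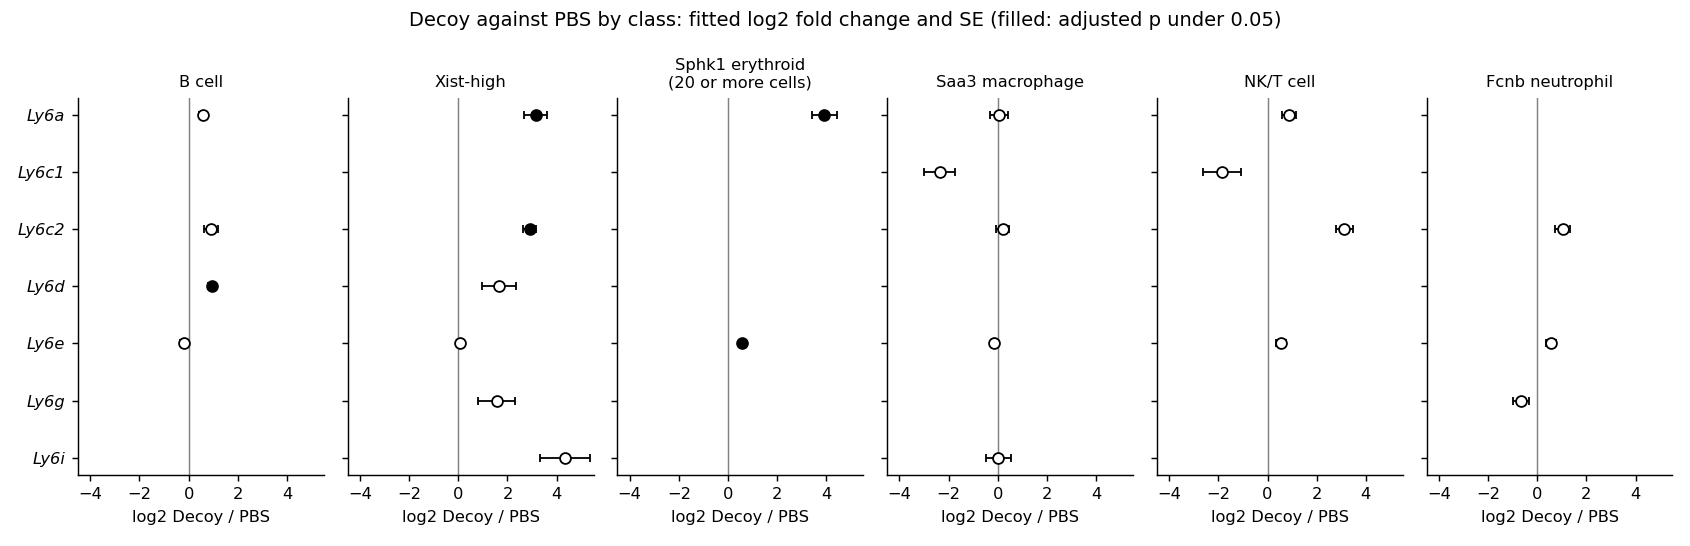
Fitted log2 fold change of Decoy over PBS (x axis) for each member (y axis) in 6 classes, with bars of 1 SE; filled points have an adjusted p under 0.05 and members with at most 3 PBS UMIs are left out. Filled points are Ly6d in B cell-like cells, Ly6a and Ly6c2 in the Xist-high class, and Ly6a and Ly6e in Sphk1 erythroid-like cells.

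Ly6g, the neutrophil surface marker, lay almost wholly in neutrophil-like cells, 72.6% of Decoy UMIs in the Fcnb and 20.3% in the Cstdc4 class. In Fcnb neutrophil-like cells it was at 566, 472 and 335 CPM in Decoy 2, 5 and 6 and 835 CPM in PBS, lower in 3 of 3 (-0.66, log2, adjusted p = 0.826, edgeR). Ly6c2 stood at 1428, 1879 and 1517 CPM in Decoy and 908 CPM in PBS (1.04, adjusted p = 0.826, edgeR), and Ly6e at 373, 314 and 331 CPM in Decoy and 266 CPM in PBS (0.56, adjusted p = 0.826, edgeR). Here edgeR called 0 of 9331 genes (0%), with 464 at an unadjusted p under 0.05, DESeq2 called 11 and voom 0. Decoy 3 had 38 cells and was left out. Ly6a was at 14.1, 165 and 9.55 CPM in Decoy and 0 UMIs in PBS, where RNA of other cells would give 16.9, 526 and 11.5 CPM in Decoy and 2.77 CPM in PBS. The part of other cells' RNA in Ly6a was not tested.

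Conventional dendritic-like cells, also admitted at 20 cells, had Ly6e at 906 to 1292 CPM in Decoy and 1457 CPM in PBS and Ly6a at 465 to 851 and 342 CPM (adjusted p = 0.749 and 0.617, edgeR, n = 3 Decoy libraries). Of 4887 genes, 0.368% were called there and none of the 3 members tested. The few plasmacytoid dendritic-like cells, 3 to 23 per Decoy library and 2 in PBS, had high Ly6d, at 3834 to 6845 CPM in Decoy and 5645 CPM in PBS, and high Ly6a, at 2800 to 3805 CPM in Decoy and 4314 CPM in PBS.

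Whether the Decoy effect differed between classes was examined with an interaction contrast. It took the mean effect of the B cell-like, Saa3 macrophage-like, NK cell and T cell-like and Fcnb neutrophil-like classes minus that of the Xist-high class. It called 0 of 12793 genes (0%), with 911 at an unadjusted p under 0.05. Ly6c2 differed by -1.60 (log2, adjusted p = 0.281, edgeR), which was called without Decoy 2 (adjusted p = 0.0332), and Ly6e by 0.13 (adjusted p = 0.937, edgeR). Ly6a differed by 0.67 ± 10.8 and Ly6d by 6.77 ± 3.58 (log2, SE), and neither was called. Ly6a had 0 PBS UMIs in Fcnb neutrophil-like cells. Ly6d had 0 PBS UMIs in Fcnb neutrophil-like and Saa3 macrophage-like cells and 3 in NK cell and T cell-like cells. The sizes of these averages are therefore not read. Ly6c2 of the Xist-high class lay below the level that RNA of other cells would give, and the part of that RNA in the contrast was not tested.

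Other genes of the pathway were read from lists. Of 36 further Ly6 and uPAR domain genes in the files, 5 were tested in B cell-like cells and 9 in the Xist-high class. Of these, Cd59a, an inhibitor of complement, fell in B cell-like cells, at 2.39 CPM in Decoy and 21.8 CPM in PBS (-3.23 ± 0.67, log2, SE, adjusted p = 0.0281, edgeR), where erythroid markers summed to 59.6 to 597 CPM in Decoy and 8313 CPM in PBS, mast cell and basophil markers to 2.13 to 53.0 CPM in Decoy and 165 CPM in PBS, and their part was not tested. Of the same list, 0 passed in the Xist-high, Saa3 macrophage-like, NK cell and T cell-like and Fcnb neutrophil-like classes. Of 26 genes of GPI anchor synthesis and attachment in the files, Dpm3, a subunit of dolichol-phosphate mannose synthase, rose in the Xist-high class, at 167 CPM in Decoy and 110 CPM in PBS (adjusted p = 0.0212, edgeR). Pgap1, which removes a fatty acid from the anchor, fell in B cell-like cells, at 19.4 CPM in Decoy and 58.4 CPM in PBS (adjusted p = 0.00362, edgeR).

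Of 29 type I interferon response genes tested in the Xist-high class, 10 rose, against 0.796% of all genes called in either direction, with a list median of 1.19 on the log2 scale beside 0.0028 for all genes. The macrophage and neutrophil markers given above were also higher in these Decoy cells, and their part in the count was not tested. They included Oasl2, an antiviral oligoadenylate synthetase-like gene, at 5.71 CPM in Decoy and 1.47 CPM in PBS (adjusted p = 0.00695, edgeR), Lgals3bp at 3.88 and 0.579 CPM, and Xaf1 at 6.51 and 2.48 CPM. In B cell-like cells, 2 of 31 rose, Ifitm3 (71.8 CPM in Decoy, 13.9 CPM in PBS) and Ifi27l2a (883 and 429 CPM), and the antiviral gene Rsad2 fell (2.98 CPM in Decoy, 41.6 CPM in PBS, adjusted p = 0.00107, edgeR). The erythroid markers of PBS B cell-like cells, given above, moved with Rsad2, and their part was not tested. Of the interferon gamma list, 2 of 19 rose in the Xist-high class, the GTPase gene Iigp1 and the chemokine gene Cxcl9, and 0 of 20 passed in B cell-like cells.

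The genes most like each member were named by Pearson's r of log2(CPM + 1) over 41 sums of 11 classes, which share libraries and depth. For Ly6a these were Tapbpl (0.91), Ifi203 (0.90) and Mndal (0.90), and for Ly6i Klra2 (0.96), Ifi204 (0.95) and Fgl2 (0.95). For Ly6d they were the B cell genes Cd79a (0.97), Ms4a1 (0.96) and Ebf1 (0.96), and for Ly6g Mrgpra2b, Chil1 and Mmp9 (0.97 each). For Ly6c2 they were Galns (0.93), Aldh3b1 (0.91) and Gpr160 (0.91), for Ly6e Zc3h7a (0.93), Bckdha (0.92) and Fundc1 (0.92), and for Ly6c1 Klrk1 (0.67), Mcub (0.66) and Cx3cr1 (0.65). Among the members, the pairs with the highest r were Ly6c2 with Ly6i (0.72) and Ly6a with Ly6d (0.61).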

How the data were processed

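Single-cell RNA was counted in 5 libraries made with 10x 3' v3.1 chemistry, per the labels' protocols. The authors deposited counts, whole numbers of UMIs per gene and barcode with no normalization. The matrix headers name Cell Ranger 5.0.0, whereas the submitters' processing notes list Cell Ranger 3.1, Seurat 4, DESeq2 and mm10; the annotation was not given in the sources used here.

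Barcodes were kept with 500 or more genes and 1000 or more UMIs, of which at most 10% mitochondrial, and doublets marked by scrublet were removed. Cells were scaled to 10000 UMIs, and 2000 variable genes, without Ly6, interferon, NF-kB, cell cycle, mitochondrial and ribosomal genes, gave 30 principal components and Leiden clusters (scanpy 1.11.5, leidenalg 0.10.2, resolution 0.5). Clusters were named from 16 marker lists by 3 or more markers, each found in 10% of cells and 2-fold above the other clusters. The merging of clusters at r of 0.80, joined names, and classes at 20 cells were chosen after the data had been seen.

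UMIs were summed per library and class (at least 50 cells) and tested with edgeR 4.0.16 in R 4.3.3: filterByExpr, TMM and the two-sided quasi-likelihood test with Benjamini-Hochberg adjustment. The code was tested on simulated data. Alternatives used DESeq2 1.42.0 and limma 3.58.1 (voom). Each SE is the absolute log2 fold change divided by the square root of edgeR's F statistic. CPM are UMIs over the class total times 1e6. RNA of other cells was estimated as the median ratio of foreign genes (haemoglobin, immunoglobulin and neutrophil genes) in a class to the library, times the member's level over all kept cells. Intervals are exact and cover counting error only. With 1 PBS library an exact permutation test cannot give a p below 0.2, so none is printed. Members and lists were chosen with earlier results of these data known. Named genes are all members, the 3 most correlated genes of each (mean of at least 10 CPM) and up to 3 called genes per list and class; subcluster leaders and markers were named after their values were seen.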

Additional observations from a re-analysis of the deposited data

Results flagged for a closer look

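In 6 of 35 sets of 4 Decoy values, 1 library lay far from the other 3 (gap over range above 0.829). Chance gives about 1 in 20 for independent, normally spread values. These sets share the same libraries and some rest on few UMIs, so no excess over chance is read from the count. Decoy 2 was highest for Ly6a (1776 CPM, next 1007) and Ly6c2 (774, next 526) and lowest for Ly6d (8.76, next 111) in Saa3 macrophage-like cells, and lowest for Ly6i (59.5, next 98.9) in progenitor-like cells. Decoy 3 was highest for Ly6c1 in progenitor-like cells (7.25 CPM, next 3.54), and Decoy 6 in Marco macrophage-like cells (76.1, next 7.63), where 1 cell held most UMIs.

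Some members lay below PBS in every Decoy library of 1 class and above it in every Decoy library of another. These differences between classes were not tested. How many of all genes did the same was not counted, and PBS is 1 library. On the log2 scale of the Decoy mean over PBS, Ly6c1 was at -2.29 in Saa3 macrophage-like and -1.94 in NK cell and T cell-like cells, each from 7 PBS UMIs, and at 2.76 in the Xist-high class, from 4 PBS UMIs. Ly6g was at -0.87 in Fcnb neutrophil-like cells and 1.25 in the Xist-high class, at levels of at most 0.159 CPM there. Ly6e was at -0.26 in B cell-like and -0.16 in Saa3 macrophage-like cells, and at 0.38 in progenitor-like, 0.47 in NK cell and T cell-like and 0.35 in Fcnb neutrophil-like cells.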

How the results depend on the processing

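Of 451 alternative values for members in tested classes, 408 kept their direction and side of the threshold, 7 lost the call, 26 gained it and 10 turned sign; the cause was not tested. No paired analysis was possible because PBS has 1 library. In B cell-like cells 690 genes were called without a filter and 5 at either resolution 0.3 or 1.0 (leaving out a library, 120 to 335); members called were 3, 0 and 0, and 2 with DESeq2 or with doublets at the expected rate (1 to 2). Ly6d had an adjusted p of 0.102 (edgeR) at both resolutions. In the Xist-high class the genes were 573 without a filter, 263 with DESeq2, 281 with voom and 0 at resolution 1.0 (86 to 734 leaving out a library, 734 without Decoy 2); members were 4 without a filter and 0 at resolution 1.0. Fcnb neutrophil-like cells had 11 genes and 1 member with DESeq2 (0 to 12 genes). NK cell and T cell-like cells had 31 genes and 2 members without a filter, 345 and 3 with DESeq2 (0 to 869 and 0 to 5). Saa3 macrophage-like cells had 169 genes without a filter, 365 and 1 member with DESeq2, 1 gene with voom and 4 with like-named clusters pooled (0 to 831 genes and 0 to 1 members). The interaction had 3 genes without a filter (0 to 17 genes and 0 to 1 members). In progenitor-like cells the log2 ratio was 1.94 for Ly6a, 1.36 for Ly6c2 and 2.10 for Ly6i with no doublet removed, 2.42 for Ly6i at the expected doublet rate, and 1.94 for Ly6a and 2.33 for Ly6i at a mitochondrial limit of 20%. With TMM scaling the highest class means were 3536 CPM for Ly6a, 3216 for Ly6c2, 1674 for Ly6e and 1192 for Ly6g. Sign turned for Ly6e in the Xist-high class at resolution 1.0 (-0.23). In Saa3 macrophage-like cells it turned for Ly6a (-0.030 with voom, -0.22 without Decoy 2, range -0.22 to 0.15 leaving out a library), Ly6g (-0.30, voom), Ly6i (-0.078 with voom, -0.27 without Decoy 2, range -0.27 to 0.16, and -0.025 at resolution 0.3) and Ly6e (0.012, clusters pooled), and in the interaction for Ly6c1 (0.016 without Decoy 3, 0.034 without Decoy 6, range -1.99 to 0.034). Saa3 macrophage-like cells could not be tested where PBS fell under 50 cells (no doublet removed, expected doublet rate, resolution 1.0, 20% mitochondrial limit), nor Fcnb neutrophil-like cells at the expected doublet rate. Depth limits Ly6c1 and the members with 0 to 4 PBS UMIs.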
